A study of Mus musculus with 2 samples.

Results

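The transcripts of the MHC class II antigen presentation system were described here in sorted mouse mammary basal cells, with 1 library from untreated or saline treated animals (Ctrl basal) and 1 from animals given clodronate liposomes (CL basal). The 10 genes were selected by name from the 49492 genes of the count table, with the values of this comparison already known, and all 10 were found. They were the chain genes *H2-Aa*, *H2-Ab1* and *H2-Eb1*, the invariant chain gene *Cd74*, the peptide loading genes *H2-DMa*, *H2-DMb1* and *H2-DMb2*, the loading inhibitor genes *H2-Oa* and *H2-Ob*, and the transactivator gene *Ciita*. Because the genes were chosen on the contrast between these libraries, every difference between them is a description and no test is attached to it.

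Basal cells lie on the outside of mammary ducts and can contract, and clodronate liposomes are vesicles that kill the macrophages that take them up. Each group was 1 library labelled day 7 from mice of WT genotype, and the study's methods describe adult females injected repeatedly into the peritoneum before the glands were taken. The control library carries the treatment label none, while the series text calls its mice saline treated. The strain and the number of animals behind each library are not given in the sources used here, and another experiment of the study with CL names C57/B6 mice. The sort kept CD24+ CD29hi cells free of lineage markers, among them CD45 of leukocytes. The libraries held 37846008 counts (Ctrl basal) and 38962512 (CL basal), and 1 library per group gives no estimate of the spread between animals. All intervals are 95% intervals of counting error only.

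MHC class II molecules are pairs of an alpha and a beta chain that show peptides from endosomes to CD4+ T cells. Dendritic cells, B cells and macrophages carry them at high levels, and many epithelia begin to make them after exposure to interferon gamma. The invariant chain encoded by *Cd74* guides newly made chains to endosomes and blocks their groove, H2-DM then exchanges its last fragment for a peptide, and H2-O restrains H2-DM. Transcription of these genes depends on Ciita, a coactivator that binds no DNA itself but sits on the factors held at the X and Y boxes of class II promoters.

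These boxes were looked for in the RefSeq promoter windows (GRCm38.p6, 250 bases before to 50 after a start), which covered 7 of the 10 genes. The stretches below are shown because they hold the elements through which Ciita is known to act, in genes that were higher in CL basal (*H2-Aa*, *H2-Eb1*) and in genes that were not (*H2-Ob*, *H2-Oa*). Capitals mark the start of the X box, the palindrome that holds the X2 core where it was found, and the Y box core ATTGG. All run 5′ to 3′ on the strand of the gene, at chr17:34287857-34287914 (minus strand) for *H2-Aa*, chr17:34305765-34305822 for *H2-Eb1*, chr17:34238807-34238862 for *H2-Ob* and chr17:34092292-34092350 for *H2-Oa* (plus strand).
H2-Aa: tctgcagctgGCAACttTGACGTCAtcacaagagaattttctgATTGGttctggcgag
H2-Eb1: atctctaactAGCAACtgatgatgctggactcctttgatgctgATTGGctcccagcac
H2-Ob: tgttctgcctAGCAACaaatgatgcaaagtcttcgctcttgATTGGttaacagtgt
H2-Oa: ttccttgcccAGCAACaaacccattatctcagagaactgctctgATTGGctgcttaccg
The Y box core lay 48 bases before the RefSeq start in *H2-Aa*, 59 in *H2-Eb1*, 57 in *H2-Ob* and 43 in *H2-Oa*. The gap between the capitals of the X and Y boxes was 28 bases in *H2-Aa*, 27 in *H2-Eb1*, 25 in *H2-Ob* and 28 in *H2-Oa*.

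Searched on both strands, ATTGG was found in 7 of 8 promoter entries of the 7 genes, against 37.4% of all 32851 promoters. A module of AGNNAC followed by ATTGG after 20 to 36 bases was found in 4 of the 7 genes (*H2-DMb1*, *H2-Eb1*, *H2-Oa* and *H2-Ob*), against 3.10% of all promoters. With the looser start GNNAC, chosen after the promoters were seen, *H2-Aa* joined them, against 9.42% of all promoters. Both modules contain ATTGG, so these matches are not separate from the first. The X2 core TGACG was found in *H2-Aa* alone of the 7 genes, against 20.8% of all promoters. Only this exact core was searched, so an X2 box with a variant core would be missed. The strict module was thus an arrangement found in *H2-Eb1*, higher in CL basal, and in *H2-Oa* and *H2-Ob*, not higher on 16 and 48 counts in all. The bases between the boxes differed, and whether the boxes bear on the contrast was not tested. The RefSeq starts of *H2-DMa* lay 9664 and 12350 bases from its first exon in the count table, and that of *H2-DMb2* lay 1942 bases from its own, so these windows say little about the counted transcripts. The promoters of *H2-Ab1*, *Cd74* and *Ciita* were not analysed here.

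The closely related genes *H2-DMb1* and *H2-DMb2* differed within this arrangement. Over the 59 bases around the Y box of *H2-DMb1* they differed at 9 positions. The 30 bases that start 4 bases before the X box are shown for *H2-DMb1* (chr17:34153092-34153121) and for the matching place in *H2-DMb2* (chr17:34145121-34145150), with the first 6 bases of the X box in capitals.
H2-DMb1: acctAGTAACtgatgatgctaggctgattc
H2-DMb2: acctATTAACcgatgatgctaggctaagtc
Counted from 1 at the 5′ end, the changes from *H2-DMb1* to *H2-DMb2* were G6T, T11C, G26A and T28G. The first of them lies in the capitals, and *H2-DMb2* matched neither module. Both stretches lie before the RefSeq start of their gene but downstream of the first base counted for it.

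Class II transcripts were more abundant in CL basal than in Ctrl basal, and most of the difference lay in 4 genes. Together the 10 genes held 3815 counts in Ctrl basal and 16303 in CL basal, which is 99.5 CPM (counts-per-million, scaled to library size; interval 96.3 to 103) and 424 CPM (418 to 431). This is a ratio of 4.26 (4.11 to 4.42). *H2-Aa*, *H2-Ab1*, *H2-Eb1* and *Cd74* held 3543 and 15895 of these counts, a ratio of 4.47 (4.31 to 4.64). The other 6 genes held 272 and 408, a ratio of 1.496 (1.28 to 1.75). In sorted bulk cells, more cells with these transcripts and more transcripts per cell cannot be told apart.

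Of the 10 genes, 9 had at least 20 counts over both libraries. Among these, 5 were at least 2-fold higher in CL basal, beside 2.07% of all 17356 genes that passed the same minimum. None of the 9 was at least 2-fold lower, beside 4.79% of all genes. These shares stand for 360 genes higher and 831 lower, which became 487 and 662 when the trend on mean expression was removed. *H2-DMa* passed the minimum through its counts in CL basal. *H2-Oa*, with 16 counts in all, did not pass. The median log2 fold change (CL basal over Ctrl basal) was 1.60 over the 9 genes, 1.25 over all 10 and -0.01 over all genes with enough counts. Since the genes were chosen on this contrast, nothing is read from these shares.

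**Figure D1:**
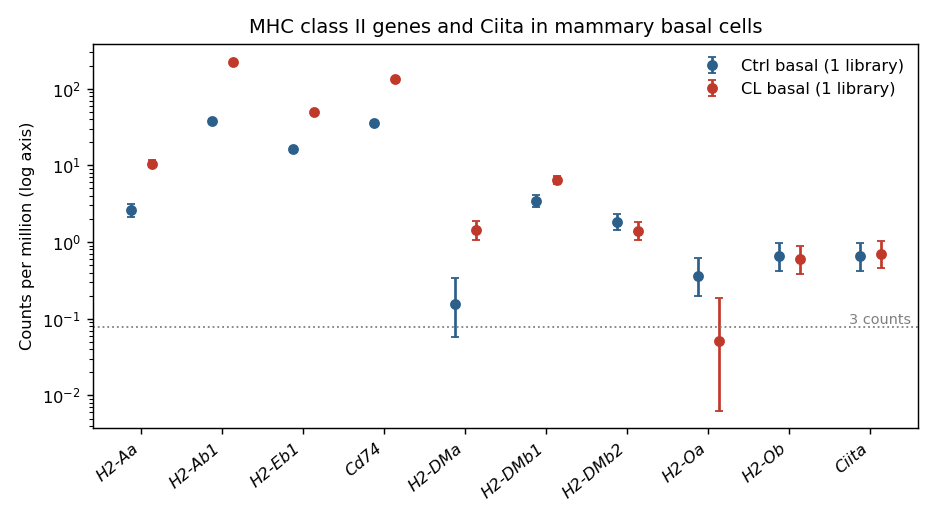
Level of each gene in CPM (log axis) in the Ctrl basal and CL basal libraries, 1 library each, with bars for the 95% Poisson interval of the count and a dotted line at 3 counts. The points of *H2-Aa*, *H2-Ab1*, *H2-Eb1*, *Cd74*, *H2-DMa* and *H2-DMb1* are higher in CL basal with bars that do not meet, while those of *H2-DMb2*, *H2-Ob* and *Ciita* overlap and *H2-Oa* is lower.

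The antigen presenting chains came first. *H2-Ab1* (chromosome 17, 34263209 to 34269418, GRCm38) encodes the beta chain of the I-A molecule and had the most counts of the 10 genes. It had 1465 counts in the control library and 8525 after CL, or 38.2 CPM (interval 36.3 to 40.2) against 222 CPM (217 to 226). The log2 fold change was 2.54 (2.46 to 2.62). *H2-Aa* (34282744 to 34287827, minus strand) encodes the alpha chain that pairs with it. It had 100 counts in the control library and 404 after CL, with 2.61 CPM (2.12 to 3.17) and 10.5 CPM (9.51 to 11.6). Its log2 fold change was 1.99 (1.69 to 2.34), and its interval as given lay below that of its partner. If mates of a pair were counted singly, both intervals are too narrow and could overlap.

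*H2-Eb1* (34305877 to 34316199), the beta chain of the I-E molecule, had 618 and 1887 counts in the same order, or 16.1 and 49.1 CPM. The log2 fold change of 1.60 (1.47 to 1.74) was lower than those of *H2-Ab1* and *H2-Aa*, and its interval met only that of *H2-Aa*, between 1.69 and 1.74. Its alpha partner is listed as the pseudogene *H2-Ea-ps*, which had 0 counts in both libraries, a count that allows up to 0.0782 CPM in Ctrl basal and 0.0780 CPM in CL basal. *H2-Eb2*, a neighbouring beta chain gene outside the 10, had 12 and 32 counts. Its log2 fold change was 1.28 (0.42 to 2.50). All 4 chain genes with counts were thus higher after CL.

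*Cd74* (chromosome 18, 60803848 to 60812646), the invariant chain, lies on another chromosome than the chains it escorts. It had 1360 counts in Ctrl basal against 5079 after CL, or 35.5 CPM (33.6 to 37.4) against 132 CPM (128 to 136). The log2 fold change was 1.90 (1.81 to 1.98), within the interval of *H2-Aa* and below that of *H2-Ab1*. Its exons share 12 of 1410 bases with the microRNA gene *Mir5107*, whose 98 and 374 counts may not be a separate measurement.

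**Figure D2:**
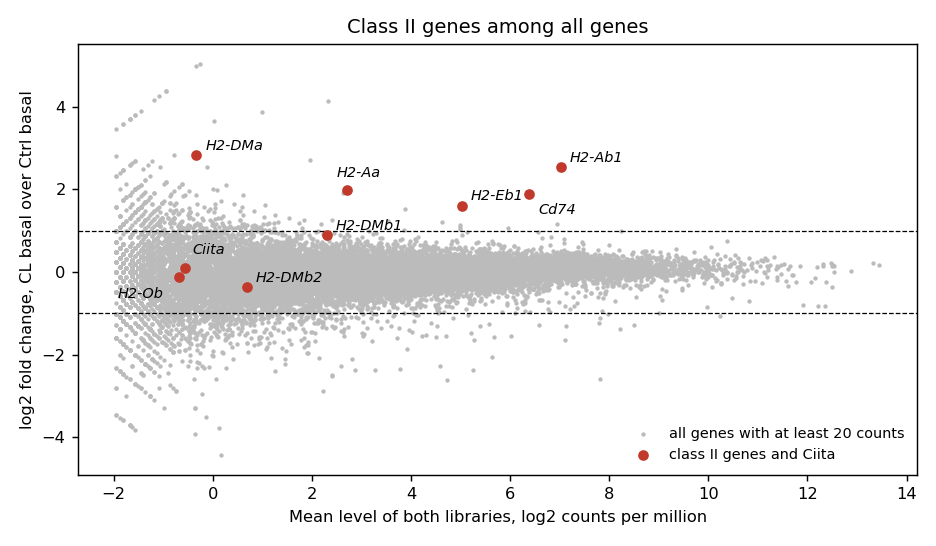
Log2 fold change of CL basal over Ctrl basal (vertical axis) against the mean level of both libraries in log2 CPM (horizontal axis) for the 17356 genes with at least 20 counts, with class II genes and *Ciita* in red and dashed lines at 2-fold. *H2-Ab1*, *Cd74*, *H2-Eb1* and *H2-Aa* lie above the cloud of genes of their level, and *Ciita* and *H2-Ob* lie within it.

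Among the 13507 genes with at least 100 counts, ordered by log2 fold change, *H2-Ab1* stood at place 4, *H2-Aa* at 5, *Cd74* at 7, *H2-Eb1* at 11, *H2-DMb1* at 103 and *H2-DMb2* at 11499. The genes next to *H2-Ab1* in this order were the immunoglobulin gene *Ighg2b* (log2 fold change 3.86) and the keratin gene *Krt10* (2.72) above it, and *H2-Aa* and *Mir5107* (1.91) below it. The likeness here is the difference in 1 ratio between 2 libraries, which many unrelated genes can share.

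The peptide loading genes did not move together. *H2-DMa* (34135182 to 34139101) encodes the alpha chain of H2-DM. It had 6 counts in Ctrl basal and 55 in CL basal, or 0.156 CPM (0.0574 to 0.341) against 1.43 CPM (1.08 to 1.86). Its log2 fold change of 2.83 had a wide interval (1.98 to 4.70), since the control value rests on 6 counts. *H2-DMb1* (34153072 to 34160230), one of its beta partners, had 132 and 247 counts and a log2 fold change of 0.89 (0.59 to 1.22), short of 2-fold. *H2-DMb2* (34143307 to 34151553), the other, had 70 and 54 counts. Its value of -0.37 (-0.92 to 0.15) shows no difference detectable at this depth.

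*H2-DMb1* and *H2-DMb2* resemble each other, and 11.3% of the 100-base windows of *H2-DMb1* transcripts in GENCODE M21 also occur in *H2-DMb2*, so some reads could fall to either. Their sum was 202 counts in the control library and 301 after CL, a ratio of 1.49 (1.24 to 1.79). *H2-DMa* shared windows in GENCODE M21 with *Brd2* (6.58%), but none of its exons in the count table overlapped that gene.

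The H2-O genes, which hold back loading and are best known from B cells, were not higher in CL basal. *H2-Ob* (34238903 to 34245907), the beta chain, had 25 counts in Ctrl basal and 23 in CL basal, a log2 fold change of -0.11 (-1.01 to 0.75). *H2-Oa* (34092340 to 34095234), the alpha chain, had 14 and 2 counts. Its ratio was 0.142 (0.0157 to 0.620). It shares 200 of 1314 exonic bases with *BC051537* on the opposite strand, which had 5 counts in Ctrl basal and 1 in CL basal. The sum of both H2-O genes was 39 and 25 counts, a ratio of 0.639 (0.371 to 1.083).

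*Ciita* (chromosome 16, 10488178 to 10527564), the coactivator of the whole group, was nearly level. It had 25 counts in the control library and 27 after CL, which is 0.652 CPM (0.422 to 0.962) and 0.702 CPM (0.463 to 1.02). The log2 fold change was 0.10 (-0.73 to 0.95). It shares 111 of 5254 exonic bases with *Dexi* on the opposite strand, which had 86 and 75 counts.

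The order of levels within each library does not use the contrast. It was taken per length, as CPM per kilobase of exon (RPKM, computed here). In Ctrl basal, *Cd74* (25.2 RPKM) and *H2-Ab1* (23.3 RPKM) led and were close, with a ratio of 1.078 (1.0004 to 1.16). *H2-Eb1* followed at 13.6 RPKM, then *H2-DMb1* at 2.32, *H2-Aa* at 1.39 and *H2-DMb2* at 1.07. *H2-Oa* (0.278), *H2-Ob* (0.207), *Ciita* (0.124) and *H2-DMa* (0.0953) came last. Between *H2-Aa* and *H2-DMb2*, and between each neighbouring pair of the last 4, the interval of the ratio included 1, so these neighbours did not differ beyond counting error.

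In CL basal, *H2-Ab1* was at 135 RPKM, *Cd74* at 93.7, *H2-Eb1* at 41.4, *H2-Aa* at 5.61 and *H2-DMb1* at 4.33. *H2-DMa* (0.872) and *H2-DMb2* (0.821) came next and did not differ beyond counting error. *H2-Ob* (0.190), *Ciita* (0.134) and *H2-Oa* (0.0396) were last, and neighbours among them did not differ either. Among all genes with a count, ordered by RPKM, *H2-Ab1* lay at percentile 90.8 in Ctrl basal and 98.3 in CL basal, and *Ciita* at 20.1 and 20.8. *H2-Eb1* lay at 85.8 and 94.2, and *H2-Aa* lower, at 52.3 and 73.9.

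The chains of the I-A pair were far from level with each other. Per length, *H2-Ab1* exceeded *H2-Aa* 16.8-fold in Ctrl basal (13.7 to 20.7) and 24.2-fold in CL basal (21.9 to 26.8). *Cd74* exceeded *H2-Aa* 18.1-fold (14.7 to 22.4) and 16.7-fold (15.1 to 18.5), a ratio whose intervals overlap between the libraries. *H2-Ab1* exceeded *H2-Eb1* 1.71-fold (1.56 to 1.89) and 3.27-fold (3.11 to 3.44). *H2-Ab1* therefore took a larger share of the class II counts after CL, 52.3% (exact binomial interval 51.5 to 53.1%) against 38.4% (36.9 to 39.97%), while *Cd74* went from 35.6% (34.1 to 37.2%) to 31.2% (30.4 to 31.9%).

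The 8 class II genes of chromosome 17 lie within 224 kb (34092340 to 34316199), which also holds genes of MHC class I peptide supply. Of the 11 other rows of the table in this span, 7 had enough counts, and 1 of them, *Tap1*, was at least 2-fold higher in CL basal. *Tap1*, a subunit of the transporter that feeds peptides to class I molecules, had 574 counts in Ctrl basal and 1330 in CL basal (log2 fold change 1.21, interval 1.07 to 1.35). The other 6 (*Brd2*, *Psmb9*, *Psmb8*, *Gm20496*, *Tap2* and *Gm15821*) ran from 0.08 to 0.51 in log2 fold change. *Tap2*, the other transporter subunit, was at 0.13 (0.03 to 0.24) although it lies between *Tap1* and *H2-Ab1*. From *Psmb8* to *H2-Ob* the values were low, and the 3 chain genes beyond were high.

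**Figure D3:**
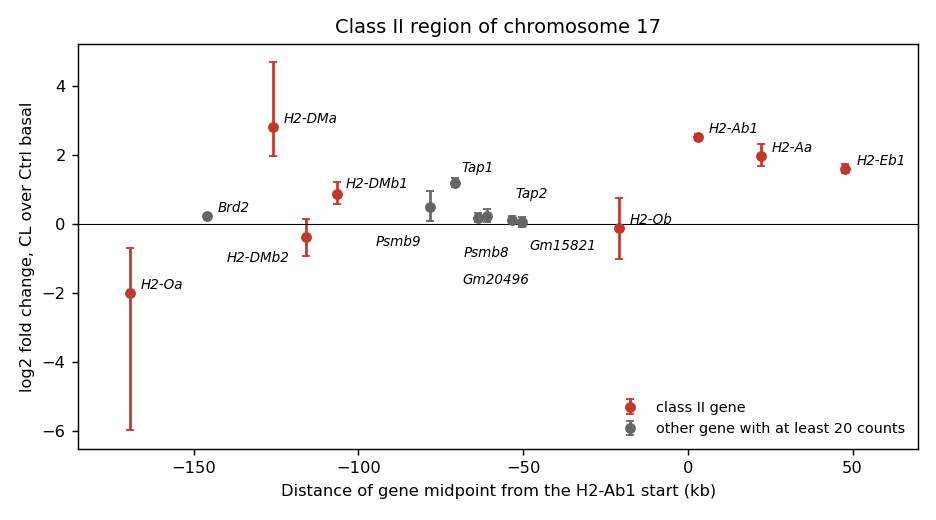
Log2 fold change of CL basal over Ctrl basal with 95% counting intervals (vertical axis) against the distance of the gene midpoint from the start of *H2-Ab1* in kb (horizontal axis), for class II genes (red) and other genes with at least 20 counts (grey). *H2-Ab1*, *H2-Aa* and *H2-Eb1* form the high right end, while *H2-DMa*, *H2-DMb2* and *H2-DMb1* differ although they are neighbours.

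The factors that occupy class II promoters were nearly level. Of 7 genes (*Rfx5*, *Rfxap*, *Rfxank*, *Nfya*, *Nfyb*, *Nfyc* and *Creb1*), none was 2-fold higher or lower, and the median log2 fold change was 0.08. They ran from -0.06 for *Rfx5* (507 counts in Ctrl basal and 489 in CL basal), a subunit of the X box factor RFX, to 0.24 for *Rfxap* (3016 and 3561), another subunit. Of 9 genes on the route from interferon gamma to *Ciita*, 8 had enough counts and none passed 2-fold. *Irf1*, which binds a *Ciita* promoter, was at 0.41 (3352 and 4477 counts, interval 0.35 to 0.48) and the feedback gene *Socs1*, the highest, at 0.58 (109 and 164, 0.23 to 0.95). The receptor kinase gene *Jak2* was at -0.21 (-0.27 to -0.16), and *Ifng* itself had 4 and 2 counts.

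Genes of peptide preparation in endosomes, enzymes and the protease inhibitor gene *Cst3*, were also level. None of 10 genes passed 2-fold, and the median log2 fold change was -0.02. *Ctss*, the protease known to trim the invariant chain in professional presenting cells, had 328 counts in Ctrl basal and 332 in CL basal (0.01, interval -0.21 to 0.24). The lowest was the protease gene *Ctsh* (-0.15) and the highest the thiol reductase gene *Ifi30* (0.22, 0.10 to 0.33). Among 7 genes of class II turnover and of *Cd74* signalling, 6 had enough counts and none passed 2-fold. *March1*, a ubiquitin ligase that removes class II from the surface, had 10 and 17 counts, and *March8* had 547 and 484 (-0.18). *Mif*, a ligand of the invariant chain, was at 0.41 (0.28 to 0.54) and its co-receptor *Cd44* at -0.06 (-0.09 to -0.03).

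Costimulatory genes, whose products presenting cells need beside class II to activate T cells, summed to 47.1 CPM in Ctrl basal and 52.3 CPM in CL basal, most of it from the checkpoint ligand gene *Cd274*. Of 6 genes, 5 had enough counts, 0 were 2-fold higher and 1 was 2-fold lower. This was *Cd80*, with 19 counts in Ctrl basal and 3 in CL basal (log2 fold change -2.07, interval -5.07 to -0.90). *Cd86* had 40 and 33 counts, and *Pdcd1lg2* had 8 and 0. *Cd274* itself was at 39.0 and 45.1 CPM, with a log2 fold change of 0.21 (0.11 to 0.31).

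MHC class I presentation, the parallel system for peptides from the cytosol, was counted alongside. Of 11 genes, 2 were at least 2-fold higher, *Tap1* and *Nlrc5*, and the median log2 fold change was 0.51. *Nlrc5*, the class I counterpart of *Ciita*, had 793 counts in Ctrl basal and 1646 in CL basal, a value of 1.05 (0.93 to 1.17). *B2m*, the light chain of class I, was at 0.81 (0.75 to 0.86) and the heavy chain gene *H2-K1* at 0.76 (0.74 to 0.78). Class I and class II were not compared with each other, since both lists were written with results of this contrast known.

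The summed markers of leukocytes, macrophages, dendritic cells and B cells were not higher in CL basal, although single genes of these lists were. The 10 pan-leukocyte genes summed to 46.8 CPM in Ctrl basal and 40.1 CPM in CL basal, with single genes from 0.26 to 14.5 CPM and from 0.23 to 13.5 CPM, and 0 of the 9 with enough counts passed 2-fold. *Ptprc*, which encodes CD45, had the most counts over both libraries (537 and 521). The pan-leukocyte sum went from 1794 to 1542 counts, with most of the fall in *Lcp1* (395 and 268) and *Arhgdib* (556 and 423). The median of the 9 was 0.10 on the log2 scale. The class II genes, chosen on this contrast, held 2.13 counts per pan-leukocyte count in Ctrl basal and 10.6 in CL basal. Whether leukocytes contributed to the class II counts was not tested. The 16 macrophage genes summed to 48.4 CPM in Ctrl basal and 40.5 CPM in CL basal. In counts this was 1856 and 1558, and most of the fall lay in *Cd14*. Among the 10 with enough counts, *Mpeg1* was 2-fold higher (28 counts in Ctrl basal and 88 in CL basal, log2 fold change 1.58, interval 1.02 to 2.32). *C1qc* was 2-fold lower on 16 and 6 counts, with an interval that included 0 (-3.06 to 0.01), and fell short of 2-fold with a prior count of 5. *Cd14*, the most abundant and also a luminal progenitor marker, had 748 and 468 counts, *Fcer1g* was at 0 in CL basal and *Fcgr1* at 0 in Ctrl basal.

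The 13 dendritic cell genes summed to 53.4 CPM in Ctrl basal and 50.4 CPM in CL basal, and the one of 10 past 2-fold, *Itgax*, was lower (42 and 18 counts). The sum went from 2046 to 1938 counts, a fall no larger than that of *Zbtb46* alone. *Zbtb46*, the most abundant, had 716 and 596 counts, *Ccr7* had 53 and 81 (0.59, interval 0.09 to 1.14), and *Cd209a* was at 0 in Ctrl basal. The 12 B cell genes summed to 17.9 and 14.1 CPM, and most of this fall lay in *Cr2* (171 and 44 counts). Of the 11 with enough counts, *Cd22* was 2-fold higher (22 and 54 counts, 1.22, interval 0.55 to 2.08) and *Cr2* and *Fcrla* 2-fold lower. *Pax5*, the most abundant, had 209 and 204 counts, and *Vpreb3* was at 0 in Ctrl basal. The 12 T and NK cell genes summed to 12.5 and 13.97 CPM with none past 2-fold. *Lck*, the most abundant, had 207 and 229 counts, and *Klrb1c* was at 0 in both libraries and *Nkg7* at 0 in CL basal. Of the 8 plasma cell genes, which summed to 335 and 368 CPM mainly through *Sdc1*, an epithelial surface protein as well, none passed 2-fold, *Tnfrsf17* was at 0 in both libraries and *Mzb1* at 0 in CL basal. *Jchain*, which joins secreted antibody chains, had 11 counts in Ctrl basal and 24 in CL basal (0.997, interval 0.04 to 2.30), just under 2-fold with the prior count, and the immunoglobulin gene *Ighg2b* had 8 and 144. The Langerhans cell marker *Cd207* had 0 and 2 counts. The other 7 genes of that list, among them the abundant *Epcam*, which epithelium also expresses, held none past 2-fold, and the list summed to 1419 and 1199 CPM.

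Epithelial lists differed from each other. The 12 basal and myoepithelial genes, the check of the sort label, were abundant, at 20100 CPM in Ctrl basal and 21065 CPM in CL basal in sum, with *Myh11* the highest. None of them passed 2-fold, and their median was 0.12 on the log2 scale. The 10 luminal progenitor genes, led by *Krt8*, were lower in CL basal, with a summed ratio of 0.578 (0.573 to 0.582) and 3 of 10 at least 2-fold lower, and the 10 hormone sensing luminal genes, led by *Areg*, had a summed ratio of 0.458 (0.442 to 0.473), with 2 at least 2-fold lower. Of 12 epidermal genes, 9 had enough counts, 3 were at least 2-fold higher (*Krt1*, *Krt10* and *Calml3*) and 1 lower (*Dmkn*), *Flg* was at 0 in both libraries and *Krtdap* at 0 in Ctrl basal. The list summed to 106 and 108 CPM, mainly through *Lgals7*. The 8 fibroblast genes (294 and 237 CPM, led by *Col3a1* over both libraries, with *Lum* 2-fold lower) and the 8 endothelial genes (437 and 347 CPM, led by *Cdh5*, none past 2-fold) were no higher after CL in sum. The part of these cells in the class II values was not tested.

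**Figure D4:**
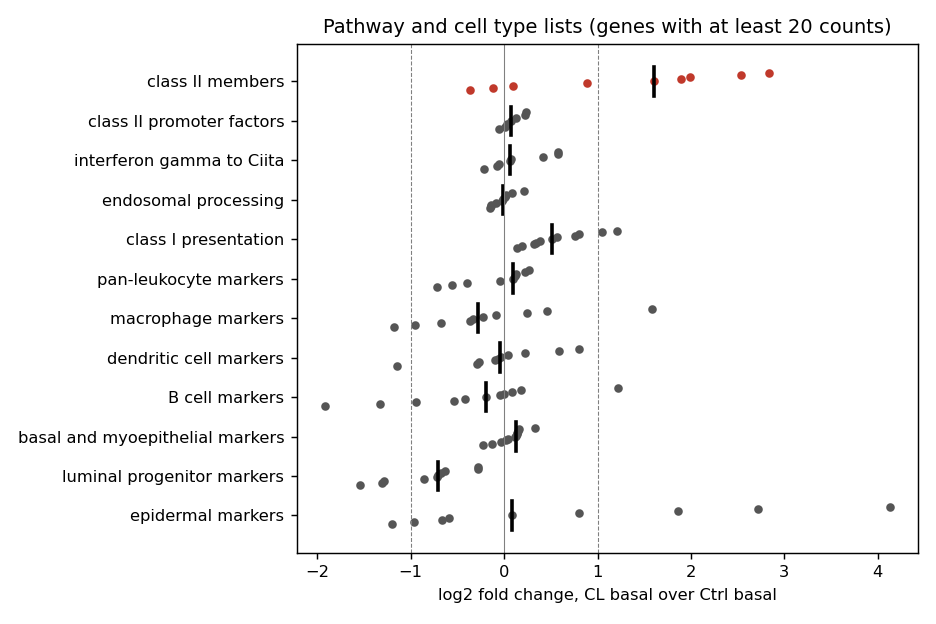
Log2 fold change of CL basal over Ctrl basal (horizontal axis, dashed lines at 2-fold) for the genes with at least 20 counts in 12 lists (rows), with 1 point per gene and a black line at the median of the list. The class II row spreads from -0.37 to 2.83, while promoter factors, endosomal processing genes and basal markers stay close to 0 and luminal progenitor genes lie below it.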

How the data were processed

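Total RNA of FACS sorted mammary basal cells was made into libraries with a SMARTER mRNA kit and sequenced on a HiSeq X instrument by the study. The deposited table holds reads that the authors counted over the exons of each gene (raw counts, not normalized), with exon lengths, for 1 CL basal and 1 Ctrl basal library. The submitters' processing notes name GRCm38, and the aligner, annotation release and use of strand are not given in the sources used here. Deposited ratio columns (CL over Ctrl and its log2) were not used. Low counts were more often even than odd (68.7% and 67.9% of counts from 1 to 20 in CL basal and Ctrl basal), so mates of a pair may have been counted singly, and intervals are then too narrow.

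Counts were scaled with TMM factors (edgeR 4.0.16, R 4.3.3; 0.987 for CL basal and 1.01 for Ctrl basal). Log2 fold changes used a prior count of 2. Exact (Clopper-Pearson) and Poisson intervals of 95% came from scipy 1.17.1, and the script for fold changes and their intervals was tested on simulated counts. These were independent Poisson counts without the excess of even counts, so coverage under such counting was not tested. No test was run, since there is 1 library per group. Shares of genes were taken over those whose libraries summed to 20 counts or more. The members and lists were chosen with earlier results of these data known. From pathway lists the text names the members with the highest and lowest log2 fold change and genes a reader needs, and from marker lists the most abundant and those at 0. Other marker genes (those past 2-fold, *Ccr7* and *Jchain*) and other pathway genes were named after their values were seen. *March1* and *March8*, written as dates in the table, were found by position in GENCODE M21, and *H2-Ea* was not found. Protein sequences were not analysed here. The values of 1 gene of these lists are not reported here.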

Additional observations from a re-analysis of the deposited data

How the results depend on the processing

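Scaling by total counts, DESeq2 1.42.0 size factors or the upper quartile, prior counts of 0.5 and 5, counts halved and removal of the trend on mean expression left all 69 values of single genes within the intervals given, and the number of class II genes at least 2-fold higher stayed at 5. Halving divides both libraries alike, so it can move a ratio only through the prior count. Intervals were not recomputed from halved counts. The number of higher class II genes was 4 with a minimum of 100 counts and 6 at a threshold of 1.5-fold. Without a minimum, *H2-Oa* entered, 1 gene was at least 2-fold lower and the median was 1.25, and with at least 100 counts the median was 1.75. Over all genes, 1342 were higher and 3208 lower without a minimum, 65 and 247 with at least 100 counts, and 1098 and 2029 at 1.5-fold, since other genes were tested or the threshold was lower. The other lists were counted again with scaling by total counts, a prior count of 5 and counts halved only. Of these 120 counts, 119 stayed within 1.5 times, and with a prior count of 5 the macrophage list held 0 genes 2-fold lower. The least certain values were those of *H2-DMa* (2.44 to 3.09 across settings) and *H2-Oa* (-2.54 to -1.44), which rest on few counts. No paired analysis was possible because there was only 1 library in either group.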
